A study of Homo sapiens with 9 samples.

Results

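HMOX1 and 9 other genes of heme breakdown and iron handling were described in HT1080 cells treated with protease inhibitors. The other 9 were HMOX2, BLVRA, BLVRB, FTH1, FTL, TFRC, SLC11A2, NCOA4 and IREB2. All were chosen by name, with earlier results of these data known. Of these 10 genes, 8 had at least 1 probe set annotated to that gene alone, 22 probe sets in all, out of 19775 genes and 41091 such probe sets on the array; FTH1 and IREB2 were not analysed here. HT1080 is an established human fibrosarcoma line. All 9 cultures were plated on a gel of fibrillar bovine collagen (1.7 mg/ml) in medium with 10% serum and had 24 h to attach. The untreated group, vehicle by title, had 3 arrays, and the labels used here state neither what the vehicle was nor the time of harvest. The other groups received the inhibitor mix for 4 h (3 arrays) or 24 h (3 arrays). That mix held GM6001 (100 µM), which blocks matrix metalloproteinases, E64 (250 µM) and pepstatin A (50 µM), which block cysteine and aspartic proteases, and leupeptin and aprotinin (2 µM each). A treatment label calls the mix a kinase inhibitor cocktail, whereas its listed compounds are protease inhibitors. All 3 groups come from 1 cell line, and the replicates are called biological in the series' design text. Values are intensities on a linear scale, given as mean ± SD (n = 3).

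Heme oxygenases open the heme ring and release iron, carbon monoxide and biliverdin, and biliverdin reductases turn biliverdin into bilirubin. HMOX1 is the inducible oxygenase and HMOX2 the constitutive one; HMOX1 transcription is held down by BACH1 and driven by NRF2 (the product of NFE2L2), both of which pair with small MAF proteins. Freed iron is stored in ferritin, a shell of heavy and light chains, and NCOA4 carries ferritin to the lysosome for breakdown. Iron enters through the transferrin receptor, TFRC, and leaves the endosome through SLC11A2, a divalent metal transporter. Iron regulatory proteins bind a stem-loop, the iron response element, in ferritin transcripts and in those of TFRC and some SLC11A2 isoforms. In ferritin transcripts the element lies before the coding region and its binding blocks translation, so that protein can move without the transcript. In TFRC it lies after the coding region, where binding protects the transcript from decay and so raises its level.

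Part of the iron response element of FTL, the ferritin light chain, is shown. The element is the site at which translation of this transcript, not its level, is controlled. The stretch printed is bases 21 to 50 of the transcript as annotated by RefSeq (GRCh38.p14, chr19:48965329-48965358, plus strand). The windows end at base 50, so the stem after the loop may be cut short, and the capitals mark the 6-base loop.
FTL: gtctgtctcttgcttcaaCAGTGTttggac
The pattern searched, a bulged C, 5 bases of any kind and the loop CAGTGN on the sense strand, lay in the first 50 transcribed bases of 1 of 14 windows of the 8 member genes found in the table of promoter windows, that of FTL, and of 1.67% of all 35116 windows. The promoter of BLVRB, biliverdin reductase B, is shown because this gene followed HMOX1 most closely among the members. These are the 250 bases before its start site (GRCh38.p14, chr19:40465746-40465995, minus strand), with no capitals because neither pattern searched was found.
BLVRB: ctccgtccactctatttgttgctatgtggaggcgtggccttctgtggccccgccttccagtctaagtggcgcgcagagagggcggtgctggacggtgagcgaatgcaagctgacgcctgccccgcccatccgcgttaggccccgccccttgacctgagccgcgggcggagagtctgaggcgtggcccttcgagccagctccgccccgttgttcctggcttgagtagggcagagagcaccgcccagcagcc
The antioxidant response element core TGACNNNGC, searched on both strands, was in 0 of the 14 member windows and in 10.9% of all windows. HMOX1 and FTH1 had no window, so their promoters were not searched. The 8 members with windows thus include IREB2. The E-box CACGTG was in 1 of the 14, a window of HMOX2, and in 6.34% of all. These matches describe letters only.

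Several array-level measures moved with the treatment. Poly-A spike RNAs averaged 9.45 ± 0.08 (log2) without inhibitors, 10.32 ± 0.21 after 4 h and 10.74 ± 0.04 after 24 h. No pair of groups overlapped (exact permutation p = 0.1, two-sided, which 3 arrays a group cannot go below). The 5'/3' ratio, which falls as RNA degrades, was 0.893 ± 0.034, 0.723 ± 0.132 and 0.697 ± 0.038 for ACTB but ran the other way for GAPDH, at 1.05, 1.07 and 1.08 (24 h less untreated 0.031, exact permutation p = 0.1). On the first principal component replicate 2 of the 4 h group lay at -13.4, between the untreated arrays and the other 4 h arrays at 8.63 and 15.5. Of the mesenchymal markers 6 of 10 had a mean of at least 100, led by VIM, although COL1A2 lay at 15.9 and THY1 at 20.5, dim for markers of fibroblasts. Of the leukocyte and macrophage markers 0 of 5 reached 100, of the erythroid 0 of 4 and of the endothelial 0 of 4. Of the epithelial markers 2 of 6 did (KRT8 and KRT18), while EPCAM (3.98), CDH1 (6.47), KRT19 and CLDN4 lay near 0. The part of these measures in the results below was not tested.

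HMOX1, the enzyme that starts heme breakdown, was the member that changed most. Its intensity was 508, 548 and 559 on the untreated arrays, 419, 448 and 350 at 4 h, and 830, 945 and 904 at 24 h. All 4 h arrays lay below all untreated arrays and all 24 h arrays lay above them, so the 3 groups did not overlap. The means were 538 ± 27, 406 ± 50 and 893 ± 58. From 4 h to 24 h HMOX1 rose 2.16-fold (log2 change 1.11 ± 0.13 SE, 95% interval 0.83 to 1.40, limma adjusted p = 0.0151). It was the 1 member of 8 to pass in that comparison, where 0.0253% of all genes passed in the same direction. Against untreated cells the difference was -0.40 at 4 h (interval -0.68 to -0.12, adjusted p = 0.248) and 0.71 at 24 h (1.64-fold, interval 0.43 to 1.00, adjusted p = 0.0502), neither past the threshold of 0.05.

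The HMOX1 call between 4 h and 24 h did not survive every choice. Its adjusted p was 0.0723 with a pseudocount of 1, 0.116 with the 2 treated groups alone and 0.0946 with the replicate number as a block, and it passed in 4 of 9 runs without 1 array. The runs that lost it left out untreated replicate 2 (0.0526), 4 h replicate 1 (0.0698) or 24 h replicate 1, 2 or 3 (0.0648, 0.0745 and 0.0775), while its log2 change stayed between 1.01 and 1.18. Without 4 h replicate 2, the array that stood apart, it was 1.18 (adjusted p = 0.0426). Between the same groups the poly-A spikes differed by 0.42 (log2, no overlap, exact permutation p = 0.1) and the ACTB ratio by -0.026 (exact permutation p = 0.9); their part in the HMOX1 difference was not tested.

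**Figure D1:**
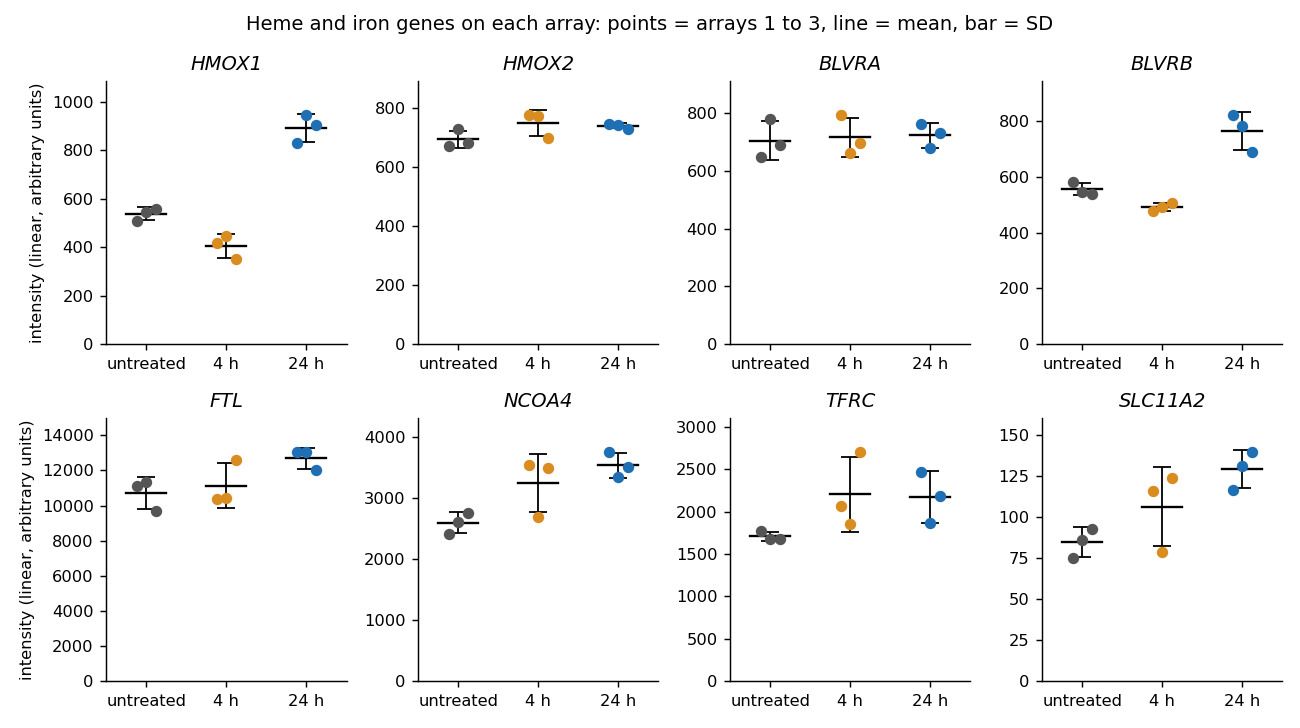
Linear intensity (vertical axis, from 0, a separate scale in each panel) of the 8 measured genes on each array of the untreated, 4 h and 24 h groups, with the mean as a line and the SD as a bar. HMOX1 was lowest at 4 h (350 to 448) and highest at 24 h (830 to 945), and BLVRB had the same order, whereas the groups of HMOX2 and BLVRA lay at similar heights.

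HMOX2, the constitutive oxygenase, gave 671, 727 and 681 untreated, 774, 774 and 698 at 4 h, and 746, 742 and 729 at 24 h. The 24 h arrays lay just above the untreated ones, and those at 4 h overlapped both. Its log2 difference was 0.11 at 4 h (interval -0.13 to 0.35, adjusted p = 0.744) and 0.09 at 24 h (interval -0.15 to 0.33, adjusted p = 0.741). At 24 h a change of HMOX2 as large as the 0.71 measured for HMOX1 thus lay outside the interval.

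BLVRB, which reduces biliverdin and flavins, had the same order of groups as HMOX1. Its intensity was 581, 548 and 540 untreated, 479, 492 and 505 at 4 h, and 821, 782 and 689 at 24 h, with no overlap among the 3 groups. The log2 difference was -0.17 at 4 h (adjusted p = 0.595), 0.44 at 24 h (1.36-fold, interval 0.19 to 0.69, adjusted p = 0.105) and 0.62 between 24 h and 4 h (1.53-fold, interval 0.36 to 0.87, adjusted p = 0.0799). None passed the threshold over all genes. With a pseudocount of 64 the last 2 passed (adjusted p = 0.017 and 0.00725), as they did with the dimmest 40% of genes left out (0.0436 and 0.0283).

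BLVRA, the main biliverdin reductase of adult tissue, did not follow on its brightest probe set. Its brightest probe set gave 647, 779 and 688 untreated, 792, 660 and 695 at 4 h, and 762, 677 and 729 at 24 h, and all groups overlapped. The log2 difference was 0.02 at 4 h and 0.04 at 24 h (interval -0.24 to 0.32, adjusted p = 0.922), and the sign of both turned when arrays were centred on their medians. A second bright probe set lay higher at 24 h (758 ± 80) than untreated (642 ± 32) with no overlap (adjusted p = 0.466 over all probe sets). It also lay wholly above the 4 h arrays (639 ± 56, limma adjusted p = 0.577). Both bright probe sets may cross-react with related transcripts, as their names mark. A dim probe set measured 11.0 ± 4.5, 26.5 ± 9.5 and 25.7 ± 6.8. On it the 24 h arrays lay wholly above the untreated ones (log2 difference 0.63, limma adjusted p = 0.197). At 24 h the dimmest lay below 0 (-0.12), and the remaining one overlapped (0.26).

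FTL, the light chain of ferritin, was bright throughout. It gave 11125, 11357 and 9678 untreated, 10383, 10426 and 12612 at 4 h, and 13049, 13036 and 12014 at 24 h. The 24 h arrays lay above the untreated arrays and of the 4 h arrays only replicate 3 was as high. The log2 difference at 24 h was 0.25 (1.19-fold, interval -0.04 to 0.53, adjusted p = 0.389), and quantile normalization turned it to -0.02. The other FTL probe set showed 8371 ± 551, 8187 ± 837 and 9857 ± 112, so that it too was highest at 24 h. Ferritin has many processed pseudogenes, and these probe sets may share signal with them.

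NCOA4, the receptor that delivers ferritin to lysosomes, gave 2411, 2606 and 2756 untreated, 3532, 2688 and 3494 at 4 h, and 3748, 3339 and 3507 at 24 h. The 24 h arrays lay above the untreated arrays. At 4 h replicate 2 lay within the untreated range while replicates 1 and 3 were as high as at 24 h. The log2 difference was 0.31 at 4 h (adjusted p = 0.399) and 0.44 at 24 h (1.36-fold, interval 0.14 to 0.75, adjusted p = 0.156). Without 4 h replicate 2 the adjusted p at 4 h was 0.142.

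TFRC, the transferrin receptor, gave 1773, 1679 and 1679 untreated on its brightest probe set, 2063, 1848 and 2704 at 4 h, and 2468, 1862 and 2187 at 24 h. Every treated array lay above every untreated one, with a wide spread at 4 h set by replicate 3. The log2 difference was 0.35 at 4 h (interval -0.02 to 0.71, adjusted p = 0.437) and 0.33 at 24 h (interval -0.03 to 0.70, adjusted p = 0.363). Its next brightest probe set measured 1456 ± 85, 1745 ± 317 and 1606 ± 73, and the next one, at 178 ± 5, 169 ± 21 and 157 ± 48, had lower means in both treated groups. Without 4 h replicate 3 the difference at 4 h was 0.19.

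SLC11A2, which passes iron out of the endosome, was dim, and its values lean on the pseudocount of 16 more than those above. Its brightest probe set gave 74.9, 85.8 and 92.8 untreated, 116, 78.8 and 124 at 4 h, and 116, 131 and 139 at 24 h. The 24 h arrays lay above the untreated arrays, and on this probe set 4 h replicate 2 lay within the untreated range. The log2 difference was 0.26 at 4 h (adjusted p = 0.571) and 0.53 at 24 h (1.44-fold, interval 0.16 to 0.90, adjusted p = 0.156). The 4 h value was 0.44 without 4 h replicate 2 and 0.16 without 4 h replicate 3. A second probe set agreed in direction at 24 h (70.3 ± 9.2 and 100.4 ± 12.8). On it 4 h replicate 2 was the brightest array, at 122.2, and the 4 h arrays (lowest 81.5) lay above the untreated ones (highest 80.8). The next probe set overlapped at 24 h (52.1 ± 7.4 and 57.0 ± 10.9).

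**Figure D2:**
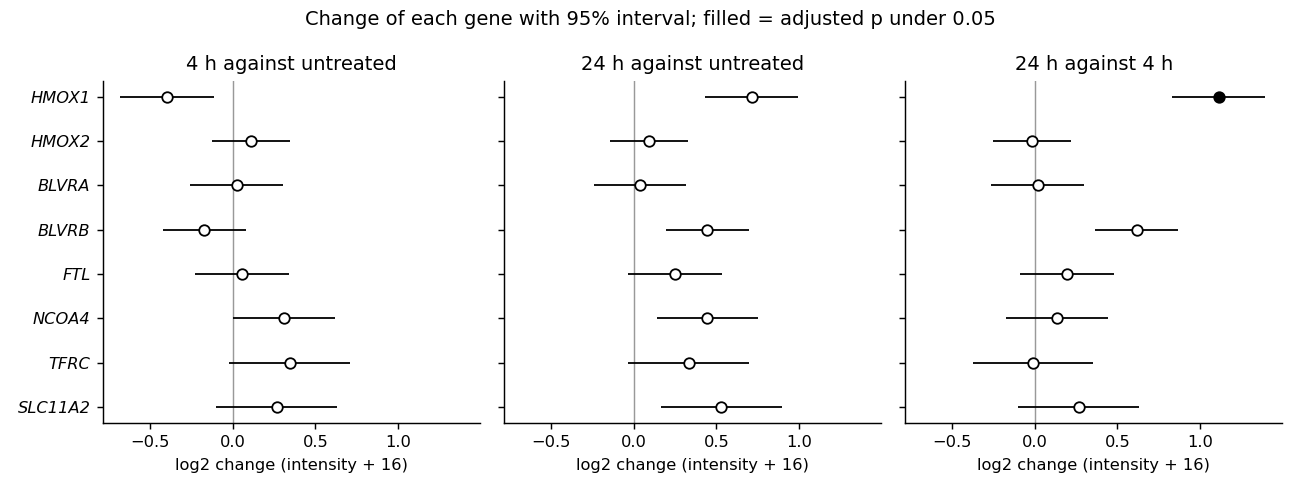
Log2 change on the intensity + 16 scale (horizontal axis) with its 95% interval for 8 genes (rows) in the 3 comparisons (panels); a filled point passed an adjusted p of 0.05 over all genes. HMOX1 between 24 h and 4 h was the only filled point, at 1.11.

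Taking the 8 genes as a group, 0 passed at 4 h and 0 at 24 h against untreated cells, by limma, where 0.248% and 0.465% of all genes passed in either direction. At an unadjusted p under 0.05 there were 2 of 8 at 4 h and 4 of 8 at 24 h, beside 12.4% and 15.8% of all genes. At 24 h all 8 log2 differences were above 0, as were 51.6% over all genes, with a median of 0.39 against 0.01 over all genes. In 7 of the 8, all but BLVRA, the 24 h arrays lay wholly above the untreated arrays, which held for 12.8% of all genes. At 4 h the median was 0.08, TFRC lay wholly above and HMOX1 and BLVRB wholly below, where 9.37% and 8.14% of all genes did so. Between 24 h and 4 h, HMOX1 and BLVRB lay wholly higher, beside 7.35% of all genes, and the other 6 genes overlapped on their brightest probe sets. The other FTL probe set and the second bright one of BLVRA also lay wholly higher there. Their lowest 24 h arrays were at 9763 and 702.7, and their highest 4 h arrays at 9150 and 675.6. The 3 comparisons share arrays, so that these counts are not independent of each other. The members were also chosen with earlier results of these data known. In bulk RNA, a change in the share of cells that express a gene and a change per cell cannot be told apart.

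Across all 22 probe sets, 18 of which had a mean of at least 16, the HMOX1 probe set passed between 24 h and 4 h (limma adjusted p = 0.0279 over 41091 probe sets). That was 1 of 22, beside 0.0073% of all probe sets higher in that comparison, and it passed in none of 9 runs without 1 array. Against untreated cells 0 passed at either time, where 0.0389% and 0.11% of all probe sets did. At an unadjusted p under 0.05 there were 2 of 22 at 4 h, beside 11.3% of all probe sets, and 9 of 22 at 24 h, beside 14.3%. At 24 h 19 lay above 0, beside 51.2% of all probe sets, and 13 lay wholly above the untreated arrays, which 11.2% of all probe sets did. The 3 below 0 were the dimmer probe set of HMOX2, the 157 ± 48 probe set of TFRC and the dimmest of BLVRA. Probe sets of 1 gene share its RNA and are not replicates.

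**Figure D3:**
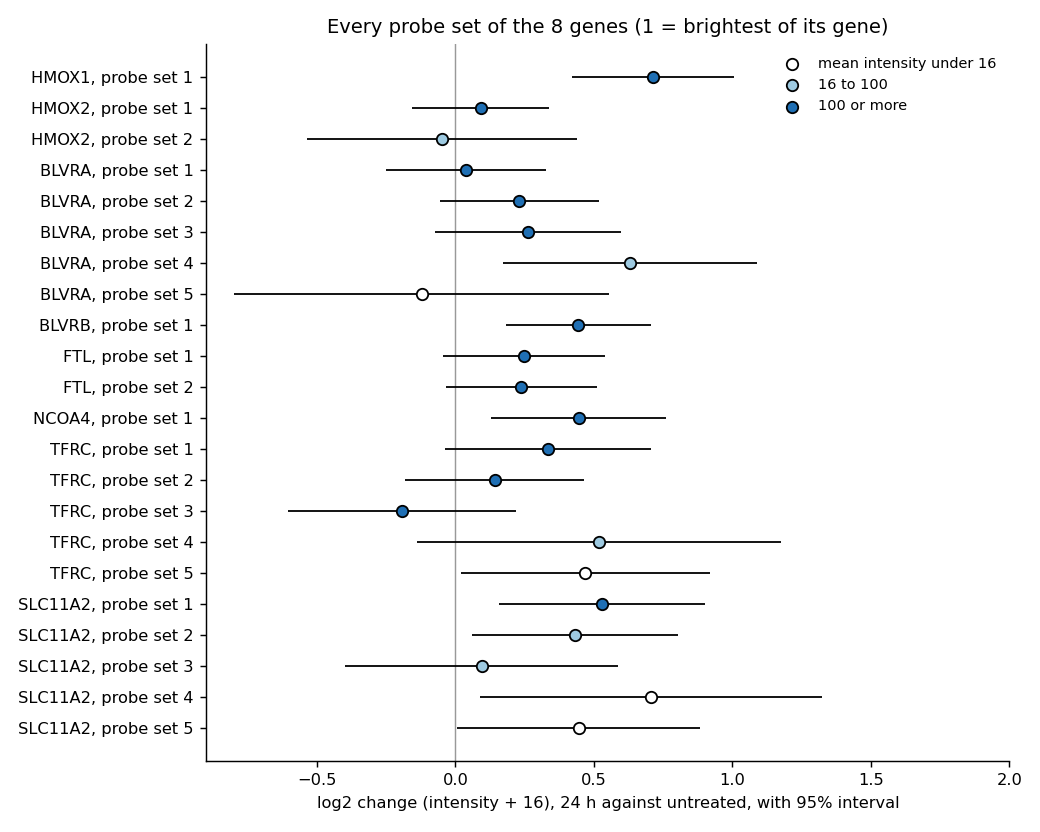
Log2 change at 24 h against untreated on the intensity + 16 scale (horizontal axis) with 95% intervals for all 22 probe sets (rows), grouped by gene and ordered by brightness, with the fill giving the mean intensity class. Of the 22, 19 lay above 0, and HMOX1 was at 0.71.

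Other genes of the pathway came from 8 lists, of whose 86 genes 79 were measured. By limma over all genes, 1 was higher at 4 h (0.233% of all genes were). At 24 h 1 was higher and 1 lower, beside 0.465% of all genes that passed in either direction. Between 24 h and 4 h 0 passed, where 0.142% of all genes did. In that last comparison 13 of 79 had an unadjusted p under 0.05, as did 11.3% of all genes. Their median log2 difference was -0.02 at 4 h and 0.10 at 24 h.

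Of 7 measured heme synthesis genes none passed at 24 h, and 5 lay above 0 (median 0.13), beside 51.6% of all genes. ALAS1, the rate-limiting enzyme of the pathway outside red cells, measured 660.5 ± 16.5 in untreated cells, 750 ± 45 and 859 ± 60 after 4 h and 24 h (adjusted p = 0.148 at the later time). CPOX, coproporphyrinogen oxidase, measured 400 ± 40 and 574 ± 47 at 24 h (adjusted p = 0.129), and UROS, uroporphyrinogen synthase, 285 ± 20 and 199.8 ± 35.1 (adjusted p = 0.137). Of the 7 genes 3, ALAS1 and CPOX among them, lay wholly higher at 24 h than untreated, as did 12.8% of all genes. UROS lay wholly lower, and the share of all genes that did so is not given here. Among 9 genes of heme transport and binding none passed. TSPO, a mitochondrial outer membrane protein that binds porphyrins, measured 1509 ± 45 and 993 ± 136 (adjusted p = 0.105), and SLC48A1, a lysosomal heme transporter, 67.2 ± 6.0 and 92.5 ± 10.0 (adjusted p = 0.207, with 1 of 3 probe sets pointing down). ABCB6, a porphyrin transporter, measured 141 ± 9 and 185 ± 39 (adjusted p = 0.332), and its 2 probe sets differed in sign.

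At 24 h 0.465% of all genes passed in either direction, and of 18 genes of iron uptake, export and reduction 1 fell. This was MELTF, melanotransferrin, an iron-binding surface protein, from 847, 890 and 808 to 338, 369 and 355 (log2 change -1.22 ± 0.16 SE, limma adjusted p = 0.0252). The groups lay far apart, with the 4 h arrays between them at 442, 701 and 587. At 24 h 2 of the 4 MELTF probe sets pointed up, and with their mean the call was lost (-0.42, adjusted p = 0.198). It was also lost with a pseudocount of 1 (0.0739), with the replicate block (0.0759) and in 6 of 9 runs without 1 array, those that left out any untreated or 24 h array. STEAP1, of a family of metal reductases, measured 565 ± 36 and 441 ± 24 (adjusted p = 0.175), and STEAP4 6.13 ± 0.31 and 14.0 ± 4.3, under the pseudocount and with its 2 probe sets differing in sign.

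Among 6 genes of iron sensing and iron chaperones, none passed and 5 lay above 0 at 24 h, beside 51.6% of all genes. BOLA2, which works with GLRX3 in cytosolic iron-sulfur trafficking, measured 36.9 ± 1.0 and 75.9 ± 11.5 (adjusted p = 0.129), and its 2 probe sets differed in sign. GLRX3 measured 2379 ± 93 and 2883 ± 215 (adjusted p = 0.384; 1 of the 4 GLRX3 probe sets pointed down), and PCBP1, an iron chaperone that loads ferritin, 2081 ± 264 and 1606 ± 61 (adjusted p = 0.361). Of 13 genes of mitochondrial iron and iron-sulfur assembly none passed, and 9 lay below 0 (median -0.07). Of all genes 51.6% lay above 0. FDX2, a ferredoxin, measured 231 ± 11 and 197 ± 4, ISCA2 757 ± 45 and 908 ± 86, and GLRX5 1646 ± 37 and 1929 ± 88 (adjusted p between 0.392 and 0.448).

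**Figure D4:**
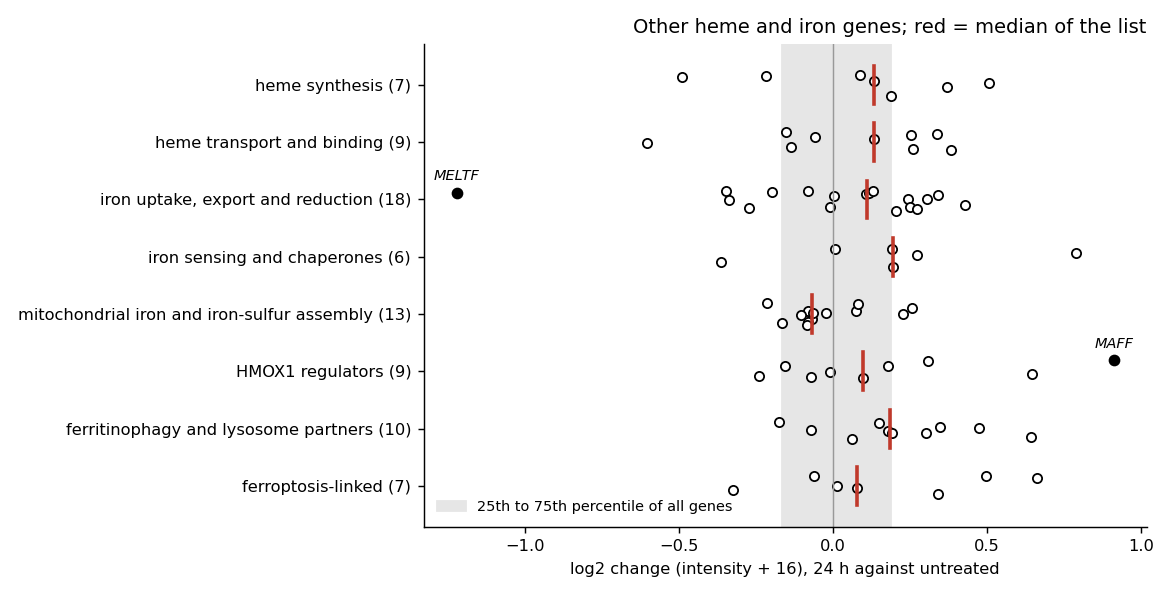
Log2 change at 24 h against untreated on the intensity + 16 scale (horizontal axis) for 79 other heme and iron genes (points, number measured in brackets) by list, with the list median in red and the central range of all genes shaded. MELTF at -1.22 and MAFF at 0.91 were the only filled points, those past an adjusted p of 0.05, and all list medians lay between -0.07 and 0.19.

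Of all genes 0.233% passed as higher at 4 h, and 0.465% passed in either direction at 24 h. Among 9 measured regulators of HMOX1, 1 rose at 4 h and at 24 h. MAFF, a small MAF protein, gave 405, 409 and 428 untreated, 1579, 1077 and 1292 at 4 h, and 822, 752 and 805 at 24 h, with no overlap. It was 3.06-fold higher at 4 h (limma adjusted p = 0.00561) and 1.88-fold at 24 h (adjusted p = 0.0422), the time at which HMOX1 was highest. The 4 h call was lost with the compared groups alone (0.074). The 24 h call was lost with a pseudocount of 1 (0.103), the mean over probe sets (0.0962), median centring (0.0524), the replicate block (0.0856) and in 6 of 9 runs without 1 array.

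BACH1, the heme-sensing repressor of HMOX1, gave 53.9, 82.4 and 55.1 untreated, 84.6, 101 and 94.5 at 4 h, and 95.1, 121 and 107 at 24 h. All treated arrays lay above all untreated arrays (log2 difference 0.47 at 4 h, adjusted p = 0.274, and 0.65 at 24 h, adjusted p = 0.101), while 1 of its 3 probe sets pointed down at 24 h. NFE2L2, named outside the rule, gave 747, 755 and 787 untreated, 829, 902 and 1138 at 4 h, and 643, 671 and 736 at 24 h. Its groups did not overlap, and their order was the reverse of that of HMOX1 (log2 difference 0.31 at 4 h, adjusted p = 0.404, and -0.16 at 24 h, adjusted p = 0.641), and at both times 1 NFE2L2 probe set out of 3 differed in sign. Without 4 h replicate 3 the NFE2L2 difference at 4 h was 0.18. MAFG measured 105 ± 28, 148 ± 23 and 132 ± 17 (adjusted p = 0.388 and 0.487), and its differences of 0.45 at 4 h and 0.31 at 24 h were 0.24 and 0.10 without untreated replicate 3. KEAP1, which marks NRF2 for breakdown and is also named outside the rule, measured 428 ± 48, 410 ± 41 and 425 ± 49.

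**Figure D5:**
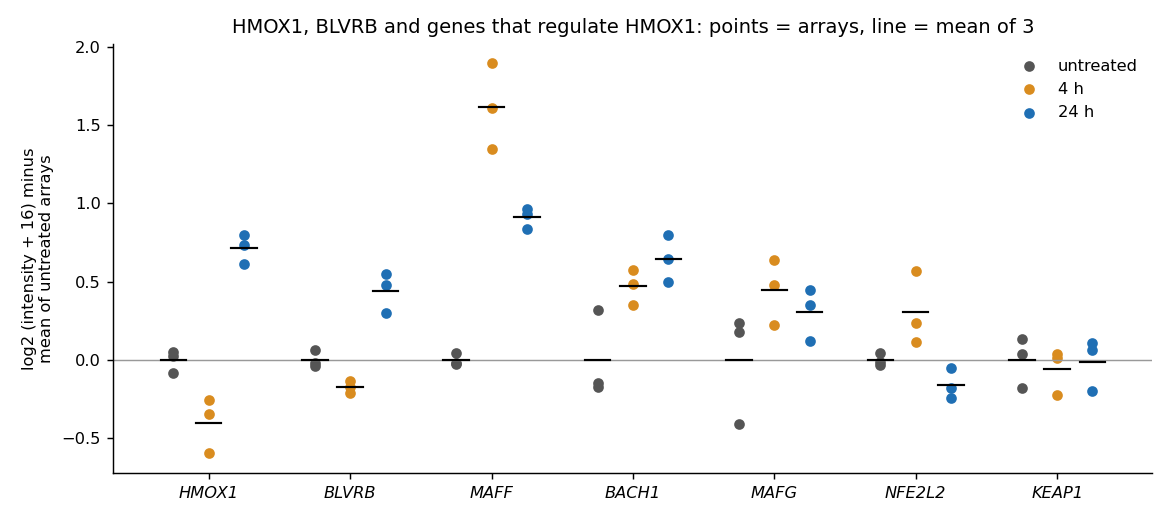
Log2 (intensity + 16) of each array minus the mean of the untreated arrays (vertical axis) for HMOX1, BLVRB and 5 genes that regulate HMOX1, with points for arrays, colours for groups and lines for means. HMOX1 and BLVRB dipped at 4 h and stood above untreated at 24 h, MAFF was highest at 4 h (1.61), and the NFE2L2 arrays ran in the reverse order of HMOX1.

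As a description with no test, the profiles over the 9 arrays most like that of HMOX1 were sought among 7053 other genes with a mean intensity of at least 100. The 5 nearest were AIFM2 (Pearson r = 0.976), SQSTM1 (0.971), VAT1 (0.968), SQLE (0.968) and PSMB2 (0.960), and they share with HMOX1 the 3 groups of arrays. SQSTM1, the autophagy receptor p62, measured 3985 ± 329, 3652 ± 338 and 5582 ± 54. AIFM2, a quinone reductase that protects membrane lipids from oxidation, measured 195 ± 15.5, 174 ± 18 and 281 ± 4, though its other probe set had the opposite sign both at 4 h against untreated and between 24 h and 4 h. SQLE, squalene epoxidase, measured 435 ± 34, 395 ± 47 and 729.8 ± 19.3. Of the members, BLVRB ranked 22nd (r = 0.918), FTL 1310th (0.489), SLC11A2 1496th (0.449), NCOA4 2175th (0.304), HMOX2 3076th (0.123), BLVRA 3303rd (0.076) and TFRC 3961st (-0.057).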

How the data were processed

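The authors deposited intensities on a linear scale for 54675 probe sets on 9 one-colour Affymetrix arrays, and each array had a mean of 100 after trimming 2% at each end. R 2.9.2 and RMA are named, without a role, per the submitters' processing notes; how probes were summarised is not stated there, and no detection calls were used. Labelled cRNA was made from 6 µg of total RNA, per the labels' protocols. The number of arrays limits the precision.

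Values were taken as log2(intensity + 16). After 62 control probe sets were left out, 41091 probe sets named 1 gene, 1801 several and 11721 were not listed. The probe set with the highest mean log2 value represented a gene (19775 genes, no filter). limma 3.58.1 in R 4.3.3 (lmFit, eBayes) was fitted to all 9 arrays with 1 mean per group, two-sided, with Benjamini-Hochberg adjustment over all genes, or over all single-gene probe sets, and a threshold of 0.05. The fit was also run on simulated data with independent noise for each gene and no array-level shifts. Such data cannot show whether the calls made here hold. Members and lists were chosen with earlier results of these data known. The text describes every member, every listed gene past the threshold and, for each list, the 3 with the smallest p at 24 h; the planned profile search for FTH1 was not run. Promoter windows are from RefSeq, GRCh38.p14, and HMOX1 and FTH1 had none there. Alternatives were other pseudocounts, the mean over probe sets, a filter, quantile normalization, median centring, the compared groups alone, a replicate block and runs without 1 array.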

Additional observations from a re-analysis of the deposited data

Results flagged for a closer look

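HMOX1 differed between the treatment times in its change from untreated cells: the log2 difference between 24 h and 4 h was 1.11 (limma adjusted p = 0.0151), with all 3 arrays at 4 h below and all 3 at 24 h above the untreated arrays. BLVRB showed the same opposite placement on every array, with a difference of 0.62 between its changes; that difference did not pass (limma adjusted p = 0.0799).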

How the results depend on the processing

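Against untreated cells at 4 h, HMOX1 and the other members gave 0 calls under all alternatives. At 24 h HMOX1 passed with a pseudocount of 64 (log2 0.67, adjusted p = 0.00807), the mean over probe sets (0.71, 0.0497), the filter at the 40th percentile (0.71, 0.0176), quantile normalization (0.72, 0.048) and the compared groups alone (0.71, 0.0477), so 1 member was called there, or 2 with the pseudocount of 64 and the filter, where BLVRB joined it. Among probe sets 2 were called with the pseudocount of 64 and 1 with the filter. Between 24 h and 4 h the HMOX1 call was lost with a pseudocount of 1 (1.14), the compared groups alone (1.11) and the replicate block (1.11, adjusted p = 0.0946), leaving 0 genes and 0 probe sets called; 2 of each were called with the pseudocount of 64, and 2 genes with the filter. Without 1 array, the members called ranged from 0 to 1 at 24 h and between 24 h and 4 h, probe sets from 0 to 1 and 0 to 0, and the HMOX1 log2 change from 0.67 to 0.76 and from 1.01 to 1.18. Pathway genes called at 4 h were 2 with a pseudocount of 64 and 0 with the compared groups alone. At 24 h they were 0 with a pseudocount of 1, the mean over probe sets or the replicate block, 1 with median centring, 9 with a pseudocount of 64, 5 with the filter, and from 0 to 3 without 1 array. Between 24 h and 4 h they were 3 with a pseudocount of 64 and 2 with the filter. The cause was not tested.

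Among the members' values and those of the named genes, direction turned for FTL at 24 h, which was 0.25 as reported, and otherwise only for differences of at most 0.053 in size. With median centring this held for HMOX2 (0.0020) and TFRC (0.0062) between 24 h and 4 h, BLVRA (-0.0544 at 4 h and -0.0200 at 24 h) and FTL at 4 h (-0.0237). With quantile normalization it held for FTL (-0.0762 at 4 h and -0.0200 at 24 h) and for BLVRA between 24 h and 4 h (-0.00776). Without 1 array the ranges between 24 h and 4 h were -0.0651 to 0.0083 for HMOX2, -0.129 to 0.143 for TFRC and -0.0389 to 0.0892 for BLVRA. At 4 h they were -0.0509 to 0.0956 for BLVRA and -0.0395 to 0.101 for FTL, and at 24 h -0.0202 to 0.112 for BLVRA. Same-numbered arrays had correlations of deviations from -0.044 to 0.057 over all genes. Such values cannot decide whether these arrays shared a source, so the replicate block was kept as an alternative. Dim probe sets had no detection call to set them apart from background.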

Other observations

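Genes of ferritin breakdown and of lipid peroxidation control, lists not described above, had no member past the threshold. Of 10 genes listed around ferritin breakdown and the lysosome, 8 lay above 0 at 24 h (median log2 difference 0.18), beside 51.6% of all genes. HERC2 (-0.18) and RB1CC1 (-0.07) lay below 0. On all 24 h arrays 6 of them were higher than on every untreated array, which held for 12.8% of all genes. TAX1BP1, a ferritin autophagy receptor, measured 607 ± 95 in untreated cells, 860 ± 245 after 4 h and 949.7 ± 31.9 after 24 h (limma adjusted p = 0.149 at the later time). Its 4 h arrays were at 783, 664 and 1135, and 1 of 3 TAX1BP1 probe sets pointed down at 4 h. GABARAPL1, an ATG8 protein, measured 48.2 ± 9.4, 61.7 ± 1.9 and 72.8 ± 7.2 (adjusted p = 0.129), and ATG7, the E1-like enzyme of autophagy, 327 ± 16, 348 ± 43 and 421 ± 32 (adjusted p = 0.222, with 1 of 4 probe sets pointing down).

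Among 7 genes linked to ferroptosis, SLC7A11, the cystine importer, measured 382, 307 and 338 untreated, 478, 454 and 762 at 4 h, and 491, 511 and 655 at 24 h. Every treated array lay above every untreated array (log2 difference 0.66 at 24 h, limma adjusted p = 0.158). AIFM2 differed by 0.50 at 24 h (adjusted p = 0.0897), and LPCAT3, a lysophospholipid acyltransferase, measured 82.5 ± 9.1 and 63.0 ± 12.3 (adjusted p = 0.338).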
